A study of Homo sapiens with 12 samples.

Results

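Cytosolic ribosomal proteins are the protein parts of the ribosomes that translate nuclear mRNAs. They were taken here by gene symbol: every gene named RPS or RPL with a number (with or without a final A or X), and RPSA, RPLP0, RPLP1 and RPLP2. The rule gave 77 of the 13001 genes of the count table, 31 of the small (40S) subunit and 46 of the large (60S) subunit. All 77 passed the filter on low counts, which removed 0 genes. Pseudogenes were not members, and neither was FAU, whose ribosomal protein is made as a fusion to a ubiquitin-like protein.

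The ribosome needs its proteins in fixed ratios, and most of these genes are transcribed at a high rate in every dividing cell. Their mRNAs carry a 5′ terminal oligopyrimidine (TOP) tract, a C at the first base followed by a run of pyrimidines, through which mTORC1 and the RNA-binding protein LARP1 control their translation and stability. Free ribosomal proteins, above all RPL5 and RPL11 of the 5S particle, can bind MDM2 and stabilise p53.

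RNA-seq of polyA RNA was made from LNCaP cells (clone FGC), an androgen-sensitive line from a lymph node metastasis of prostate cancer, at passage 8. Cells were transiently transfected by lipofection, with a medium change after 6 h, and fell into 4 groups of 3 libraries. The plasmid was an empty vector (EV) in the first group, and carried LSD1, LSD1+8a or SRRM4 in the others. KDM1A encodes the histone demethylase LSD1, the LSD1+8a isoform contains microexon 8a, and SRRM4 regulates splicing in neurons. A transfected culture is a mixture of cells that took up plasmid and cells that did not. No label states whether replicate libraries derive from different cultures. The p-values therefore measure only the spread among these replicates, and that spread may be technical. In such bulk RNA, fewer cells with an mRNA and less of it per cell cannot be told apart.

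Total counts, in units of 1e6, were 12.8 to 13.6 per EV library, 10.9 to 11.5 per SRRM4 library and 11.7 to 13.4 per LSD1 or LSD1+8a library. KDM1A followed the labels of the LSD1 libraries (94.3 ± 0.828 CPM with EV, 540 ± 40.5 with LSD1, 2268 ± 316 with LSD1+8a, mean ± SD, n = 3, where CPM is the count scaled to the normalized library size). It stood at 96.3 ± 4.06 CPM with SRRM4, and the SRRM4 transcript itself was not analysed here. All 11 luminal prostate markers were measured, KLK3 at 3124 ± 56.6 CPM with EV, and 0 of 4 leukocyte markers were listed. Among all genes 3.22% were lower and 4.47% higher with SRRM4 against EV. With SRRM4, 6 of the luminal markers were lower and 1 higher. Of the 8 neuroendocrine markers 3 were listed and 2 of these, SYP and SYT4, were higher. Of the 5 fibroblast and endothelial markers 2 were listed, COL1A1 and VWF, and VWF was lower with SRRM4 (log2 fold change -0.29). The call of VWF was lost in 4 of 20 alternative settings, which include leaving 1 library out. The part of cell state in the values below was not tested.

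The annotated starts of these genes were read for the TOP feature, which some mRNAs outside the ribosome share. In RefSeq promoter sequences (GRCh38.p14, 250 bases before to 50 after an annotated start) 62 of the 77 members were matched by symbol. Of these, 46 (74.2%) had an annotated start that reads C followed by at least 4 pyrimidines, on the strand of the gene. The same was true of 10 of 15 matched genes for translation factors and further TOP mRNAs outside the rule (66.7%). It was true of 6 of 67 mitochondrial ribosomal protein genes (8.96%) and 675 of 9040 matched genes of the count table (7.47%). In the whole table it was true of 1404 of 27305 symbols (5.14%). Counted by start instead of by gene, the shares were 59.7% of 77 member starts and 4.07% of 35116 starts. Windows of 30 bases, 15 before and 15 from the annotated start, are given for the members that the comparisons below name first, with the pyrimidine run in capitals.
RPL41: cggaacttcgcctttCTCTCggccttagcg
RPL13A: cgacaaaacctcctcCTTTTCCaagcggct
RPL10: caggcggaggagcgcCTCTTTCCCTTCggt
RPS24: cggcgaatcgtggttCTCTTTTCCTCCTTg
RPL14: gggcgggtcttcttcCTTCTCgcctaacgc
RPL24: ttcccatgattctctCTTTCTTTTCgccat
RPL37A: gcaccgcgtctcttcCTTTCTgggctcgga
RPL10A: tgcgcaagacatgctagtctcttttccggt
RPS15: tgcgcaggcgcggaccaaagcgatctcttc

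Within the printed windows the run was 5 bases long in RPL41 and 14 in RPS24. RPL10 has 3 annotated starts, and its window is that of the start with the longest run. RPL10A and RPS15 carry no capitals, since their annotated starts do not read C and 4 pyrimidines. In RPL10A a run of pyrimidines begins a few bases after the annotated start. The windows lie at chr12:56116618-56116647 (RPL41, plus strand), chr19:49487593-49487622 (RPL13A, plus), chrX:154398362-154398391 (RPL10, plus), chr10:78033848-78033877 (RPS24, plus), chr3:40457324-40457353 (RPL14, plus), chr3:101686704-101686733 (RPL24, minus), chr2:216498829-216498858 (RPL37A, plus), chr6:35468386-35468415 (RPL10A, plus) and chr19:1438381-1438410 (RPS15, plus). Each covers the last bases of the promoter and the first bases of the 5′ UTR. The other 15 members were not matched.

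Other sequences were counted in the same way. In the 300 bases, on either strand and counted separately for each motif, TATAAA stood in 5 of 62 members (8.06%), in 7.72% of the matched genes of the count table and in 14.0% of all symbols. The ETS-type sequence CCGGAAGT stood in 9 of 62 members (14.5%), in 10.6% of the matched genes of the count table and in 4.95% of all symbols. The YY1-type sequence AAGATGGCG stood in 5 of 62 members (8.06%), in 5% of the matched genes of the count table and in 2.14% of all symbols. Among mitochondrial ribosomal protein genes it stood in 13 of 67 (19.4%).

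With the empty vector the members made up 8.62% ± 0.163 of all counts and 21.7% ± 0.321 of all TPM (counts scaled to gene length and library total, which lets genes be compared). The small subunit genes held 8.32% ± 0.119 of TPM and the large subunit genes 13.4% ± 0.203 (SD, n = 3). By TPM the members spanned a 23.6-fold range around a median of 2611, and their quartiles were 1930.3 and 3378. RPS27, a zinc-finger protein of the 40S, was highest at 7039, 7478 and 7234 TPM in EV libraries 1, 2 and 3. RPS2, at the mRNA entry channel, followed at 6991, 6846 and 6872 TPM. The ranges of these neighbours, RPS27 and RPS2, did not overlap with EV, but they did over the SRRM4 libraries, where RPS2 averaged 7053 ± 179.8 TPM and RPS27 6847 ± 52.4.

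Next came RPS18 of the 40S head (5828 ± 64.2 TPM with EV) and RPL41, a very short basic peptide at the interface of the subunits (5429.9 ± 96.7). At the other end stood RPL22 (317, 304 and 301 TPM), an RNA-binding protein that is dispensable for the ribosome itself, RPS26 at the mRNA exit (704 ± 24.5) and RPL5 (1090.3 ± 17.8). The ranges of RPL22, RPS26 and RPL5 over the EV libraries did not overlap.

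**Figure D1:**
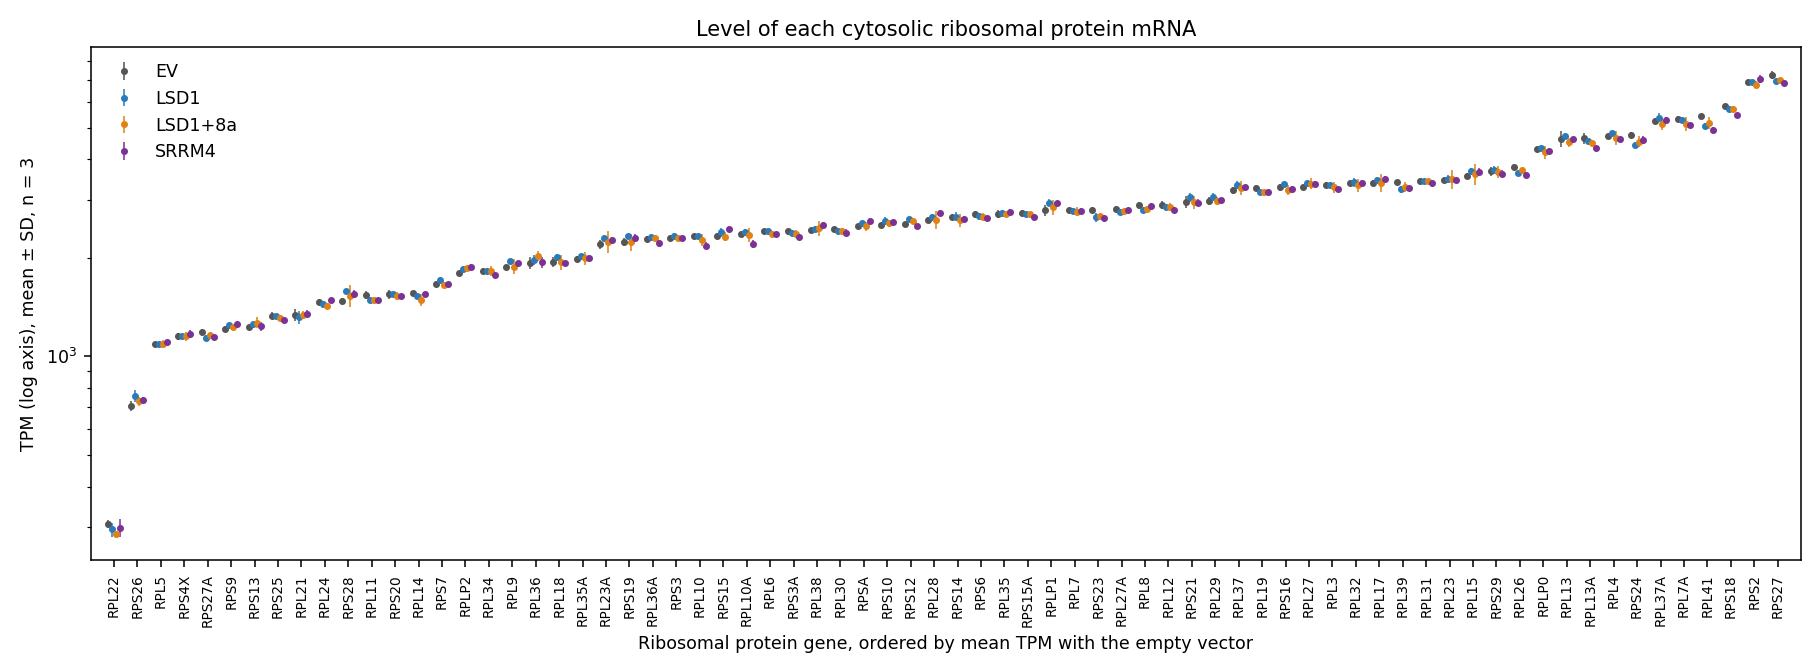
TPM of 72 of the 77 members on a log axis, ordered by the mean with the empty vector; points are means of 3 libraries and bars are SD, for the 4 groups in 4 colours. The order runs from RPL22 (307 TPM) to RPS27 (7250.5 TPM), and the 4 groups lie nearly on each other.

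The members are abundant mRNAs with small counting error, and they varied little between libraries. Over all 12 libraries the coefficient of variation of a member's CPM had a median of 2.92% and ran from 1.64% (RPS9) to 4.61% (RPL38) among 76 members, both named after their values were seen. The median SE of a member's log2 fold change was 0.03 in each comparison. For 76 of the 77 members the 95% interval of the change lay within 0.2 of 0 on the log2 scale in each of the 6 comparisons. This held for 5186 of all 13001 genes for SRRM4 against EV and for 6643 for LSD1+8a against EV.

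In some libraries most members lay on the same side of the mean with the empty vector, and in others they divided nearly evenly. The members' median log2 CPM, set against the mean of the EV libraries, was -0.02, 0.04 and -0.02 in EV libraries 1, 2 and 3. It was 0.03, -0.04 and -0.02 with LSD1, -0.08, 0.00 and -0.02 with LSD1+8a, and -0.01, 0.02 and -0.03 with SRRM4. The lowest value was that of LSD1+8a library 1, where 75 of 77 members lay below the EV mean. The highest was that of EV library 2, where 69 of 77 lay above it. In LSD1+8a library 2, 40 lay above and 37 below, and in SRRM4 library 1, 34 and 43. The EV libraries are themselves part of the mean they are set against. All 4 groups overlapped, and the SD of these medians within groups was 0.03. As a share of TPM, members ran from 20.8% in LSD1+8a library 1 to 22.1% in EV library 2.

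**Figure D2:**
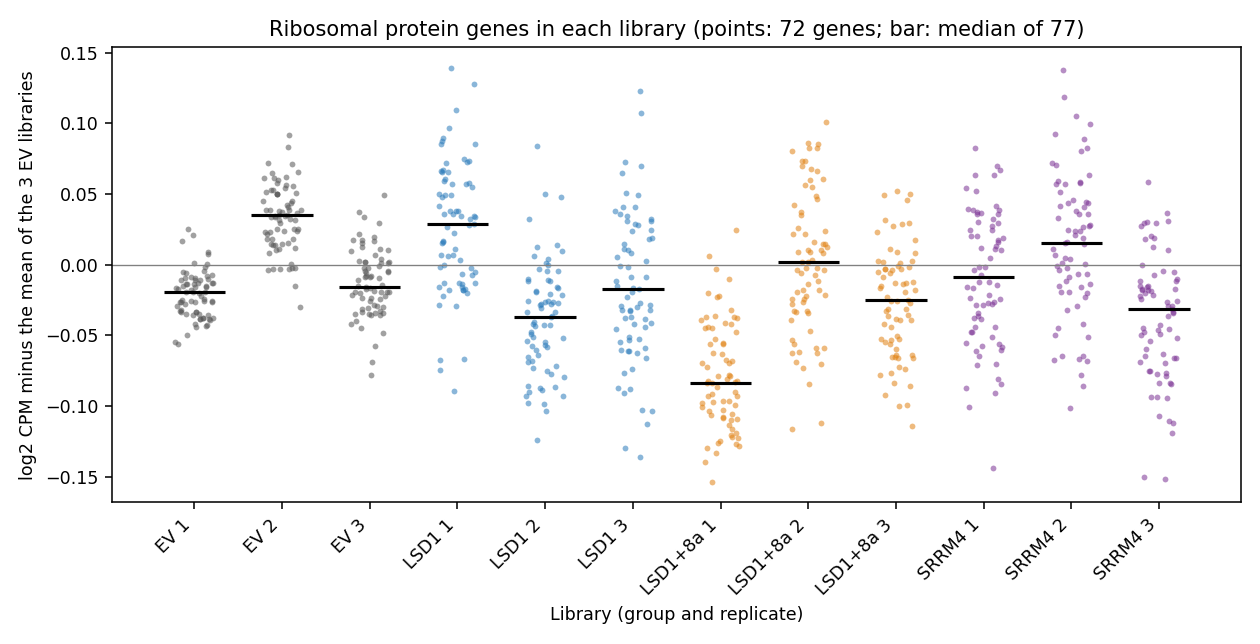
Each point is 1 of 72 members' log2 CPM in 1 library minus the mean of the 3 EV libraries; bars are medians over all 77 members, and colours are groups. The bar of LSD1+8a library 1 is lowest (-0.08) and that of EV library 2 highest (0.04).

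In SRRM4 against the empty vector 0 members were higher and 2 lower, RPL41 and RPL13A, by an adjusted p under 0.05 (edgeR's quasi-likelihood test, Benjamini-Hochberg over all genes). Among all genes 4.47% were called higher and 3.22% lower. By unadjusted p under the same threshold 1 member was higher and 9 were lower, against 10.8% and 9.95% of all genes. In this fit the counts of lower members are near their background shares, and those of higher members (0 and 1 of 77) are below theirs. Over the alternative settings the count of lower members ran from 0 to 7 by adjusted p and from 4 to 19 by unadjusted p. The counts of 7 and 19 came after a trend with gene length was removed. The median change over the members was -0.01 on the log2 scale, with 33 above 0 and 44 below, and the median over all genes was 0.00.

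RPL41 stood at 1285, 1341 and 1333 CPM in EV libraries 1 to 3 and at 1195, 1259 and 1188 CPM in SRRM4 libraries 1 to 3. All SRRM4 libraries lay below all EV libraries, with library 2 the nearest. The mean dropped by 8.03% (log2 fold change -0.12, SE 0.0313, adjusted p = 0.0119). The call was lost without SRRM4 replicate 1 (log2 fold change -0.11, adjusted p = 0.0756) or SRRM4 replicate 3 (-0.11, adjusted p = 0.0829). It was lost also when the reads of its listed copy were added (-0.08, adjusted p = 0.123), as described with the copies.

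RPL13A is a 60S protein that also serves in translational silencing after interferon-gamma. It stood at 3576, 3809.9 and 3542 CPM with EV and at 3396, 3449 and 3353 CPM with SRRM4. The groups did not overlap, and EV library 2 was the highest of the 6. The log2 fold change was -0.10 (SE 0.0314, adjusted p = 0.0442). The call was lost without EV replicate 1 (-0.11, adjusted p = 0.0644) or EV replicate 2 (-0.07, adjusted p = 0.250). It was lost also without SRRM4 replicate 1 (-0.10, adjusted p = 0.124), 2 (-0.11, adjusted p = 0.0622) or 3 (-0.09, adjusted p = 0.159). With the replicate block the adjusted p was 0.0627 (-0.10), and in the TPM fits it was 0.0802 and 0.0803 (-0.09 in both).

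RPL10, which sits by the peptidyl transferase centre and is among the last proteins to join the 60S, missed the threshold (log2 fold change -0.09, SE 0.0304, adjusted p = 0.0550). Its SRRM4 libraries lay close together at 902, 896 and 906 CPM, below EV at 954, 985 and 944 CPM. The authors' deposited table gave an adjusted p of 0.0384 for RPL10, and an adjusted p under 0.05 for 4 of the 77 members in this comparison, RPL41, RPL13A, RPS18 and RPL10. DESeq2 run on the counts called the same 4, with the same adjusted p for each to 3 digits, so the pair of results is 1 test. Among all genes DESeq2 called 235 lower. The share of counts from mitochondrially encoded genes, 7.21 to 7.40% with EV and 6.63 to 6.89% with SRRM4, moved with the groups. With normalization factors computed without those genes the members' calls were again 0 higher and 2 lower.

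**Figure D3:**
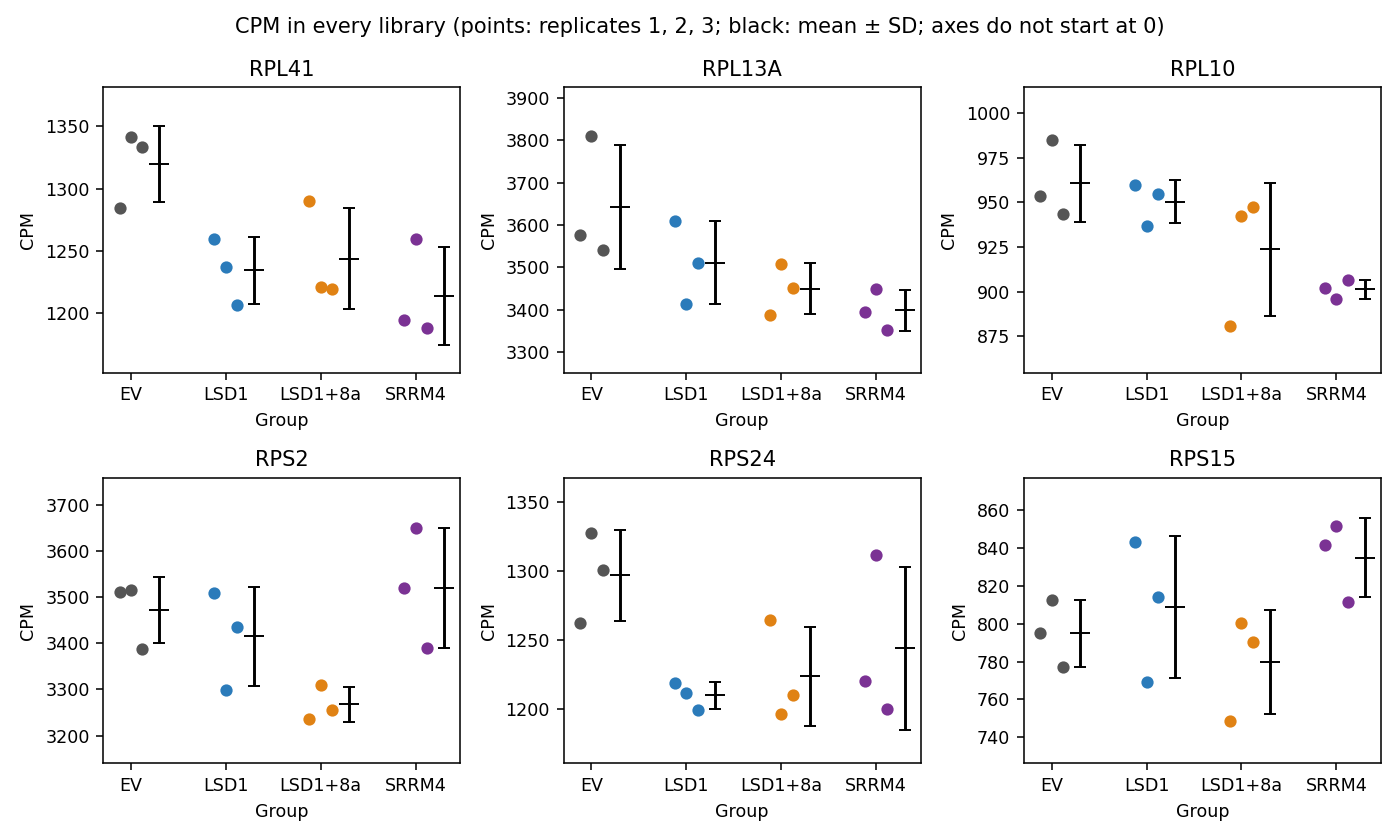
CPM of 6 members in every library (points, replicates 1 to 3 from left to right) with the mean and SD of each group of 3; the axes do not start at 0. SRRM4 libraries lie below EV for RPL41, RPL13A and RPL10, LSD1 libraries lie below EV for RPL41 and RPS24, and LSD1+8a libraries lie below EV and SRRM4 for RPS2.

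LSD1+8a against the empty vector gave 0 members higher and 0 lower, beside 0.285% and 0.0615% of all genes. At an unadjusted p under 0.05, 0 were higher and 15 lower, beside 3.59% and 3.23% of all genes. The unadjusted count of lower members exceeded its background share, and it varied with the libraries. It was 4 without EV replicate 2, 10 without LSD1+8a replicate 1 or 3, 17 or 18 without EV replicate 1 or 3, and 19 without LSD1+8a replicate 2. DESeq2 gave 22 and limma-voom 21 by the same unadjusted threshold. Lower counts came from the replicate block (13), a fit of only the 2 groups (12) and both TPM fits (7, with 1 member higher). DESeq2 and limma-voom also called 0 members in either direction. The median was -0.04, with 66 of 77 members below 0, and the median over all genes was 0.00. The changes were small, from -0.09 to 0.03 over 76 members, and none of their intervals reached beyond -0.15 or 0.10.

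This lean rested in part on single libraries. Without LSD1+8a replicate 1 the members' median was -0.02, and without EV replicate 2 it was also -0.02. Without LSD1+8a replicate 2 it was -0.06. The member with the smallest p, RPS2, stood at 3511, 3515 and 3389 CPM with EV and at 3237, 3309.6 and 3256 CPM with LSD1+8a. Here the groups did not overlap (log2 fold change -0.09, SE 0.0314, adjusted p = 0.498). RPL14, a 60S protein with an alanine-rich tail, read 817, 820.4 and 828 CPM with EV and 746, 807 and 774 CPM with LSD1+8a, again without overlap (log2 fold change -0.08, SE 0.0306, adjusted p = 0.513). RPL41 overlapped with EV through LSD1+8a library 1 at 1290.2 CPM (log2 fold change -0.09, adjusted p = 0.513).

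LSD1 against the empty vector gave 0 members higher and 0 lower in edgeR, beside 0.0462% and 0.0538% of all genes. At an unadjusted p under 0.05, 2 members were higher and 6 lower, beside 3.09% and 2.8% of all genes. DESeq2 called 1 member lower, beside 18 of all genes. That member was RPL41, at an adjusted p of 0.0499, the value that also stands in the authors' deposited table. In limma-voom 0 were called. The median was -0.01, with 35 members above 0 and 42 below, and the all-gene median was 0.00.

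RPS24, a 40S protein whose last exons are alternatively spliced, had the smallest p. It stood at 1262, 1328 and 1300.4 CPM with EV and at 1219, 1211 and 1199 CPM with LSD1, without overlap (log2 fold change -0.10, SE 0.0322, adjusted p = 0.567). RPL41 followed, at 1259, 1237 and 1206 CPM with LSD1, all below EV (log2 fold change -0.10, SE 0.0313, adjusted p = 0.587). RPS27A, a ubiquitin fusion that meets the naming rule, read 503, 523 and 523 CPM with EV and 508, 474 and 486 CPM with LSD1, with overlap (-0.08, adjusted p = 0.735). The 2 members above EV at an unadjusted p under 0.05 were RPS26 (0.09, adjusted p = 0.758) and RPS28 (0.08, adjusted p = 0.740), which were named after their values were seen.

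**Figure D4:**
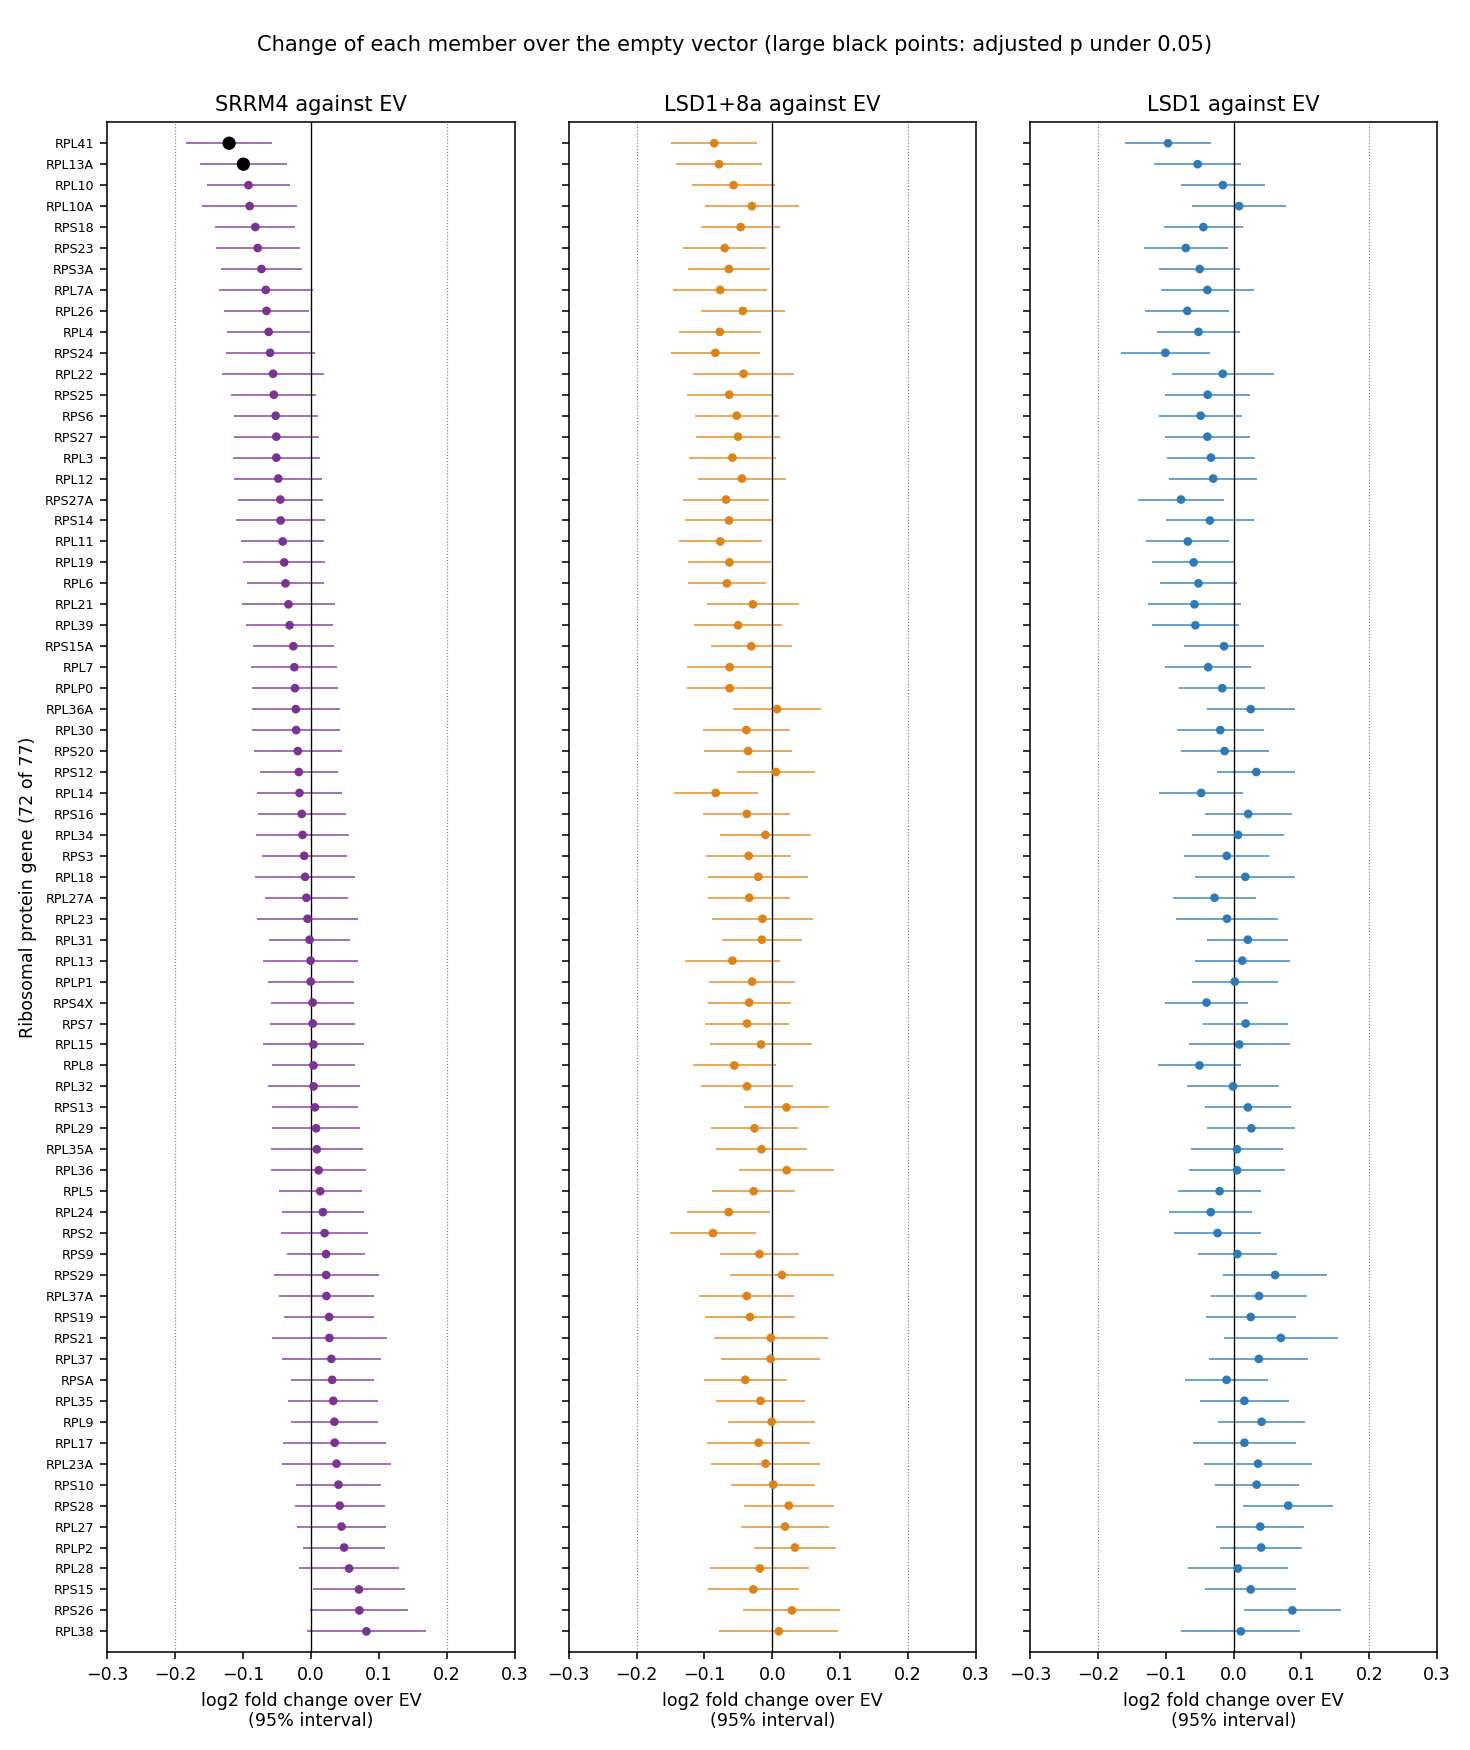
log2 fold change of 72 members over the empty vector with 95% intervals, for SRRM4, LSD1+8a and LSD1, in 1 order set by SRRM4; large black points have an adjusted p under 0.05 and dotted lines stand at 0.2 on either side of 0. RPL41 and RPL13A with SRRM4 are the points drawn in black, all intervals lie between the dotted lines, and the 3 panels share the same EV libraries, so a likeness between them is not independent.

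The 3 comparisons share the EV libraries, so their values are given side by side. For SRRM4, LSD1+8a and LSD1 in turn, RPL41 stood at -0.12, -0.09 and -0.10 on the log2 scale. RPL13A stood at -0.10, -0.08 and -0.05, and RPL10 at -0.09, -0.06 and -0.02. RPS2 stood at 0.02, -0.09 and -0.02. Of these 12 values 2 passed the threshold, those of RPL41 and RPL13A with SRRM4. The 46 members with an annotated start that reads C and at least 4 pyrimidines had medians of -0.02, -0.04 and -0.01. The 16 matched members without such an annotated start had medians of 0.00, -0.03 and 0.01. This split is by annotation only, since these 16 include RPL10A and their mRNAs may still carry a TOP tract.

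LSD1+8a against LSD1 compares the microexon isoform with the form without it, at KDM1A levels that also differ. Again 0 members were higher and 0 lower, beside 0.208% and 0.115% of all genes. DESeq2 and limma-voom called 0 as well. At an unadjusted p under 0.05, 0 were higher and 2 lower, beside 2.96% and 3.25% of all genes. These were RPL37A, a zinc-finger protein of the 60S (log2 fold change -0.08, SE 0.0345, adjusted p = 0.760), and RPL13 (-0.07, SE 0.0343, adjusted p = 0.784). RPL37A read 1123, 1038 and 1093 CPM with LSD1 and 970.3, 1074 and 1044 CPM with LSD1+8a, so that the groups overlapped. The members' median was -0.03, and it was 0.00 without LSD1+8a replicate 1 and -0.01 without LSD1 replicate 1.

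SRRM4 against LSD1+8a had 1 member called higher, RPS2, and 0 called lower, beside 4.42% and 3.17% of all genes. At an unadjusted p under 0.05, 6 were higher and 0 lower, beside 11% and 10.2% of all genes. RPS2 stood at 3521, 3649.5 and 3390.5 CPM with SRRM4, all above the LSD1+8a libraries given earlier (log2 fold change 0.11, SE 0.0315, adjusted p = 0.0294). With SRRM4 it did not differ from EV beyond its spread (0.02, 95% interval -0.04 to 0.08). The call was lost without LSD1+8a replicate 3 (adjusted p = 0.102), SRRM4 replicate 1 (0.0877) or SRRM4 replicate 2 (log2 fold change 0.08, adjusted p = 0.194), and on the TPM scale (0.06, adjusted p = 0.264).

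RPS15, in the head of the 40S with a tail that reaches the decoding centre, read 842, 852 and 811 CPM with SRRM4 and 749, 801 and 790.2 CPM with LSD1+8a. The groups did not overlap, but the adjusted p was 0.0628 (log2 fold change 0.10, SE 0.0333). RPL24, a 60S protein that makes a bridge to the 40S, read 539, 553 and 522 CPM against 498, 519 and 508 CPM (0.08, SE 0.0301, adjusted p = 0.0931). Over the members the median was 0.02, with 60 above 0, and it was 0.00 without LSD1+8a replicate 1. Without this library 1 member was called lower, RPL10A (-0.10, adjusted p = 0.0462), beside 416 of all genes.

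SRRM4 against LSD1 had 0 members higher and 0 lower, beside 4.38% and 2.67% of all genes. At an unadjusted p under 0.05, 0 were higher and 2 lower, beside 11% and 9.98% of all genes, and DESeq2 and limma-voom called 0. RPL10A, a protein of the L1 stalk over which spent tRNA leaves, read 1008, 1000.0 and 944 CPM with SRRM4 and 1092, 1028 and 1039 CPM with LSD1 (log2 fold change -0.10, SE 0.0343, adjusted p = 0.0781). RPL10 stood at 959.5, 937 and 955 CPM with LSD1, above all SRRM4 libraries (-0.08, SE 0.0305, adjusted p = 0.132). RPS12 of the 40S head had the third smallest p (-0.05, adjusted p = 0.312). The median was 0.00, as over all genes.

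By role, the members at the mRNA entry and decoding centre (RPS2, RPS3, RPS15 and RPS23) held the call of RPS2. Per comparison and direction, 0.0462% to 4.47% of all genes were called. The role lists are short, so 0 calls in a list is near these shares and says nothing about the role. The 14 proteins of the 40S head had 0 calls in 6 comparisons, with medians from -0.04 to 0.02. RPL3 and RPL10, which reach towards the peptidyl transferase centre, had 0 calls, with medians of -0.07, -0.06 and -0.02 for SRRM4, LSD1+8a and LSD1 against EV. Around the peptide exit tunnel 0 of 8 members were called. RPL4 of the tunnel wall had the smallest p there, at 2849, 2938 and 2881 CPM with EV and 2644, 2812 and 2761 CPM with LSD1+8a (log2 fold change -0.08, adjusted p = 0.566).

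The P stalk recruits elongation factors to the ribosome, and RPLP0, RPLP1, RPLP2 and RPL12, which anchors it, had 0 calls. RPLP0 stood at 3260.1, 3363 and 3246 CPM with EV and at 3028, 3249 and 3173 CPM with LSD1+8a (log2 fold change -0.06, adjusted p = 0.732). Of the 7 listed proteins known to bind MDM2, 0 were called in any comparison, beside 0.0462% to 4.47% of all genes per direction. RPL11, which binds MDM2 with RPL5, read 561, 598 and 565 CPM with EV, 549, 548 and 549 CPM with LSD1 and 548, 550.5 and 536 CPM with LSD1+8a. Both groups lay below EV without overlap, and neither passed the test (-0.07, adjusted p = 0.786, and -0.08, adjusted p = 0.584). RPL5 itself lay at 0.01, -0.03 and -0.02 with SRRM4, LSD1+8a and LSD1.

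Genes mutated in Diamond-Blackfan anaemia, an inherited failure of red cell production, made up 19 members, of which 0 were called in any comparison. This is near the shares of all genes, 0.0462% to 4.47% per comparison and direction. They include RPS24, RPS26 and RPS28 above and RPS19, the gene most often mutated. The 4 X-linked members (RPS4X, RPL10, RPL36A and RPL39) also had 0 calls, with a median of -0.03 with SRRM4 against EV. FAU, outside the rule, read 316 ± 9.21 CPM with EV and 319 ± 6.34 with SRRM4 (log2 fold change 0.01, adjusted p = 0.879).

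Reads of some members may be divided between near-identical copies, and levels of those members are uncertain to that extent. The table held 28 rows of ribosomal protein pseudogenes and 4 rows of second copies or readthrough transcripts, which carry the names of 25 members. The pseudogenes described here were named after their values were seen.

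RPL41P1, the listed pseudogene of RPL41, held 40.7% of their summed counts, and whether the pair shares reads was not tested. By TPM it read 7743, 8304 and 7542 in EV libraries 1 to 3, above every member. The rank of RPL41 by TPM is uncertain to that extent. RPL41P1 stood at 849.6, 926 and 837 CPM with EV and at 879, 879 and 828 CPM with SRRM4, and these overlapped (log2 fold change -0.01, 95% interval -0.15 to 0.12). The sum of both stood at 2134, 2267 and 2171 CPM with EV and at 2073, 2138 and 2016 CPM with SRRM4, where SRRM4 library 2 passed EV library 1. The call of RPL41 was not kept by the sum, so it is uncertain. RPL13AP5 held 0.359% of the RPL13A sum, and 4.04% of the RPS2 sum lay in 2 pseudogenes. RPL9P8 and RPL9P9 had identical counts in all 12 libraries and together held 33.5% of the RPL9 sum.

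**Figure D5:**
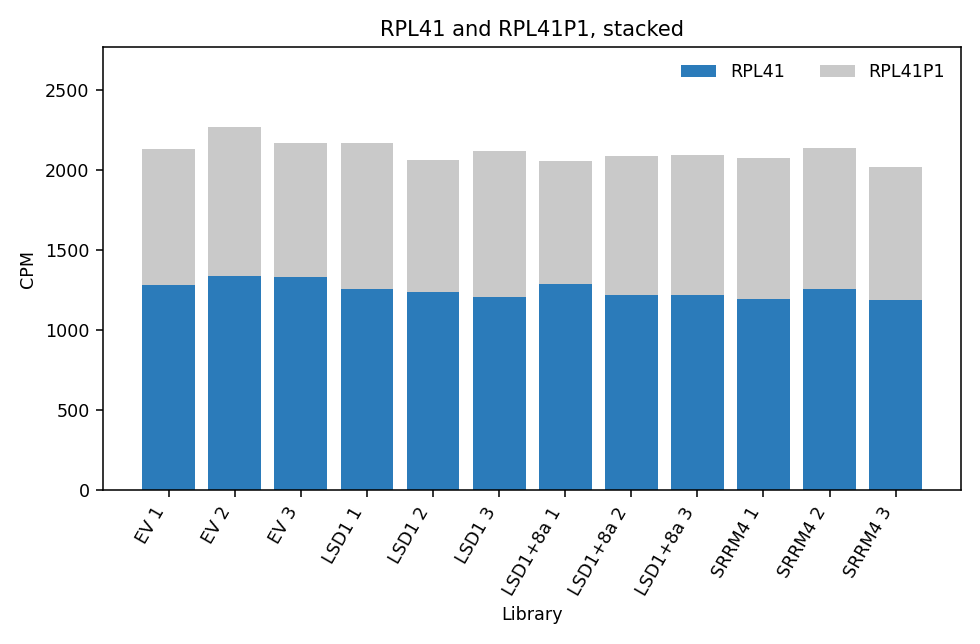
Stacked CPM of RPL41 with RPL41P1 in each of the 12 libraries, with an axis from 0. RPL41P1 is a large part of each stack, and the stacks of the SRRM4 and EV libraries overlap in height.

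Other genes of the pathway were read from lists. Translation factors and further TOP mRNAs outside the rule had 22 measured genes. With SRRM4 against EV 0 of these were higher and 4 lower, beside 4.47% and 3.22% of all genes, with a median of -0.04. EEF1D, of the exchange factor that recharges elongation factor 1A, fell from 409 ± 17.6 to 367 ± 5.37 CPM (log2 fold change -0.16, adjusted p = 0.000742). EEF1A1, elongation factor 1A itself, fell by 0.14 (adjusted p = 0.00235), EIF4B, an initiation factor that aids the helicase, by 0.13 (adjusted p = 0.00276), and PABPC1, the poly(A)-binding protein, by 0.11 (adjusted p = 0.0154, named after its value was seen). The call of EIF4B was lost in 2 of 20 alternative settings, while those of EEF1D and EEF1A1 were kept in all 20. With LSD1+8a and LSD1 against EV 0 of the 22 were called, with medians of -0.05 and -0.03. Of the 15 matched to promoters, 10 had an annotated start that reads C and at least 4 pyrimidines (66.7%).

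Of 61 ribosome biogenesis genes, 1 was higher and 1 lower with SRRM4 against EV, below the 4.47% and 3.22% of all genes, and 0 were called with LSD1+8a or LSD1. NOL6, a nucleolar assembly factor of the small subunit, rose by 0.16 (adjusted p = 0.00732). GNL3, the nucleolar GTPase nucleostemin, fell by 0.16 (adjusted p = 0.00205). The calls of NOL6 and GNL3 were each lost in 2 of 20 alternative settings. In SRRM4 against LSD1, 3 of the 61 biogenesis genes were called higher and 1 lower, beside 4.38% and 2.67% of all genes. There the calls of NOL6 and SBDS (higher) and GNL3 (lower) were lost in 8, 7 and 5 of 20 alternative settings. The 4 dedicated chaperones and the 6 listed paralogs had 0 calls in any comparison, beside 0.0462% to 4.47% of all genes per direction. Of 19 listed regulators of mTORC1 and TOP mRNAs 1 was higher and 0 lower with SRRM4, beside 4.47% and 3.22% of all genes. SESN2, a stress-induced inhibitor of mTORC1, rose from 75.7 ± 2.73 to 109.6 ± 3.97 CPM (log2 fold change 0.53, adjusted p = 3.40e-11). LARP1 read 549 ± 2.70 CPM with EV and 562 ± 11.2 with SRRM4 (0.03, adjusted p = 0.565).

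Mitochondrial ribosomal proteins serve the separate ribosome of the mitochondrion. The list taken by their symbols had 77 genes, 1 of them the pseudogene MRPS31P5. With SRRM4 against EV 3 were higher and 1 lower, shares below the 4.47% and 3.22% of all genes, and the median was 0.04 with 59 above 0. MRPL34 rose by 0.27 (adjusted p = 0.000873), MRPL49 by 0.19 (adjusted p = 0.00123) and MRPL44 by 0.23 (adjusted p = 0.0194). The call of MRPL44 was lost in 6 of 20 alternative settings, while those of MRPL34 and MRPL49 were kept in all 20. MRPL48 was the lower gene (-0.21, adjusted p = 0.0459, named after its value was seen). With LSD1+8a and LSD1 against EV 0 were called, with medians of -0.01 and 0.00. The median of the cytosolic members in the SRRM4 comparison was -0.01, and the difference between the sets was not tested.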

How the data were processed

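Libraries of 4 groups of 3 were compared. The authors deposited whole-number counts per gene, TPM per gene, and a comparison table with log2 fold changes and p-values, per the file headers. STAR 2.5.3a, RSEM 1.2.31 and hg19 are named in the submitters' processing notes, which give no step to each, so reads of near-identical copies may have been divided by estimation. Counts were scaled with TMM factors and tested in edgeR 4.0.16 (R 4.3.3, robust quasi-likelihood, filterByExpr) in 1 model of 4 groups over all 13001 genes. A gene counted as called below 0.05 after Benjamini-Hochberg adjustment. CPM are means ± SD. DESeq2 1.42.0 and limma 3.58.1 served as alternatives. A log2 fold change from TPM was on the log2(TPM + 1) or log2(TPM + 0.1) scale. The members and lists were chosen with earlier results of these data known, so no p is given over a list. Named genes were, per comparison, called members (at most 6 per direction) and the 3 smallest p, the 4 highest and 4 lowest TPM, the smallest p of each role list, and from other lists up to 3 called genes and the 2 smallest p. The procedure was tested on simulated data. Promoter sequences are from RefSeq. Depth was 10.9 to 13.6 (in units of 1e6 counts) per library, and the smallest member total was 22970 counts over 12 libraries. Some genes are not reported here.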

Additional observations from a re-analysis of the deposited data

How the results depend on the processing

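The 2 members called lower with SRRM4 against EV became 4 with upper-quartile factors, 4 with DESeq2 and 4 with limma-voom. Beside these, 561, 235 and 401 of all genes were called lower. The count was 7 after a length trend was removed, beside 423 of all genes. It was 1 when copies were added to their member, beside 422 of all genes, an alternative chosen after seeing the data. Leaving out 1 library gave 0 to 2. With LSD1 against EV DESeq2 called 1 lower, beside 18 of all genes. With SRRM4 against LSD1+8a the member called higher was lost (0) in both TPM fits, leaving out 1 library gave 0 to 1 higher, and 0 to 1 lower. With SRRM4 against LSD1, 1 was called lower in a fit of only the 2 groups and 1 after the length trend was removed. Those 2 fits called 387 and 335 of all genes lower. The causes were not tested. The members' medians moved by less than the spread of library medians (0.03) under every alternative run, but some turned sign when 1 library was left out: SRRM4 against EV ran from -0.018 to 0.0096, LSD1 against EV from -0.023 to 0.014, SRRM4 against LSD1 from -0.019 to 0.014 and SRRM4 against LSD1+8a from -0.0015 to 0.045. Single genes not past the threshold that changed sign were HEATR3 with SRRM4 against EV (-0.10 as counts, 0.12 and 0.13 in the TPM fits with pseudocounts of 1 and 0.1) and COL1A1 with SRRM4 against LSD1 (0.15, then -0.0015 and -0.0019).

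Over all genes, SRRM4 against EV gave 581 higher and 418 lower in the reported fit, 497 and 561 with upper-quartile factors, 328 and 235 with DESeq2, and 254 and 73 in the TPM fit with a pseudocount of 1.

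The replicate numbers did not pair the libraries: correlations of deviations ran from -0.24 to 0.10 and 1 of 18 pairs exceeded 0.1. Libraries lay closest to their own number in 9 of 36 comparisons, 6 of them in LSD1+8a against LSD1 (6 of 6, with correlations of 0.028, 0.065 and 0.095). With the replicate block 1 member was called lower with SRRM4 against EV, beside 369 of all genes.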
